A study of Homo sapiens with 4 samples.

Results

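The genes CREBBP, CHD4, DNMT1, CHAF1A and ANKRD11 encode proteins that write, read or rebuild chromatin. They are 5 of the 958 annotated genes that held a peak of captured RNA in at least 1 of the 3 pull-downs analysed. They were chosen by name with earlier results of these data known, so their peaks are described and none of their values carries a test. A peak belonged to a gene when it overlapped the RefSeq gene span on GRCh38 by at least 1 base, with strand ignored.

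RNA came from RD cells, an established line from an embryonal rhabdomyosarcoma, a childhood tumour of the muscle lineage. Biotinylated antisense probes recovered RNA together with whatever was bound to it. The even and the odd group each used a probe set against exon 2 of ZNF609, the exon that makes the circular RNA circ-ZNF609, and the LacZ group used probes against a bacterial mRNA and gives the background of the procedure. The cells of each group had the same culture and no other treatment is given in the labels, and the fourth of the 4 samples, the total lysate, was not analysed here. With 1 library per probe set there is no replicate error, and a single line stands for the tumour. Each library pools many cells, so a change in the RNA of each cell and a change in the number of cells that hold it cannot be told apart.

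Chromatin packs DNA around histones, and its regulators decide which stretches can be transcribed. Acetyltransferases such as the CREBBP product open chromatin, and remodelers with deacetylases, such as the complex built on CHD4, close it. The DNMT1 product copies DNA methylation after replication, and the CHAF1A product places new histones on the copied DNA. The ANKRD11 protein binds deacetylases and nuclear receptor coactivators. The measurements below concern the mRNAs or unspliced transcripts of these genes, not their proteins.

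The even list held 502 peaks with 482418 reads in peaks, the odd list 542 with 279415, and the LacZ list 722 with 219401. Reads are given per bin of 170 bases and are not scaled to library depth, so a value is compared with others of its own list unless a ratio is set against all shared regions. Of 16 muscle lineage markers 5 had a peak (DES, TNNT1, TNNT2, ACTC1 and CDH15), 5 with even, 3 with odd and 2 with LacZ probes. The others, MYOD1 and MYOG among them, had none. Of 8 markers of other cell types 0 had a peak. Over all annotated protein-coding genes the share with a peak was 4.22%, so 0 of 8 says little about the cells. The targeted gene ZNF609 had 1 even peak, 3 odd peaks and 0 LacZ peaks. By reads per bin its best peaks were at rank 77 of 502 (704 reads) in the even list and 109 of 542 (394) in the odd list. In both lists the best peaks of CREBBP, DNMT1, CHAF1A and ANKRD11 ranked higher by reads, and that of CHD4 lower. By the p-value deposited for each peak the order was different. The even ZNF609 peak then ranked 63, behind a CREBBP peak (44) and ahead of all other even peaks of the 5 genes (best 93, ANKRD11). The odd ZNF609 peak of 394 reads ranked 26. All 14 odd peaks of the 5 genes came after it, the best of them (ANKRD11) with rank 166.

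The 5 genes held 33 peaks at 16 separate places. The even list had 9 of them in 5 of the 5 genes, the odd list 14 in 5 genes, and the LacZ list 10 in 4 genes. Of all 958 genes, 35.3% had an even peak, 37.5% an odd peak and 53.3% a LacZ peak. CREBBP, DNMT1, CHAF1A and ANKRD11 had peaks in all 3 lists, a class that made up 4.91% of the genes. CHD4 was found with both ZNF609 probe sets and had no LacZ peak, as did 4.8% of the genes. These classes were known when the genes were chosen, so nothing is read from the shares.

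Most member peaks lay at places that also appeared with another probe set. Of the 9 even peaks, 8 overlapped an odd peak (background over all even peaks 18.5%) and 7 overlapped a LacZ peak (background 14.7%). Of the 14 odd peaks, 8 overlapped an even peak (17.3%) and 9 a LacZ peak (16.2%). Of the 10 LacZ peaks, 7 overlapped an even peak (10.2%) and 9 an odd peak (12%). By place, 7 of the 16 were held by all 3 lists, against 2.52% of all 1549 regions, and they lay in CREBBP (3), CHAF1A (2) and ANKRD11 (2). Only 6 of the 958 genes (0.626%) had 2 or more such regions, the others being TNNT2, RBM25 and EIF3A. Of the 47 genes with peaks in all 3 lists, 61.7% had at least 1, among them CREBBP, CHAF1A and ANKRD11 but not DNMT1. A further 2 places were held by odd and LacZ (3.16% of regions) and 1 by even and odd (3.49%), and these 3 lay in DNMT1. Even and LacZ without odd held 0 (2.26%). The remaining places belonged to 1 list, 4 to odd (25.8%), 1 to even (24.1%) and 1 to LacZ (38.7%). Peaks are made of whole bins, so overlapping peaks of 1 bin are identical by construction. The genes were chosen with earlier results of these data known, so nothing is read from these overlaps beside the shares of all peaks, regions and genes.

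**Figure D1:**
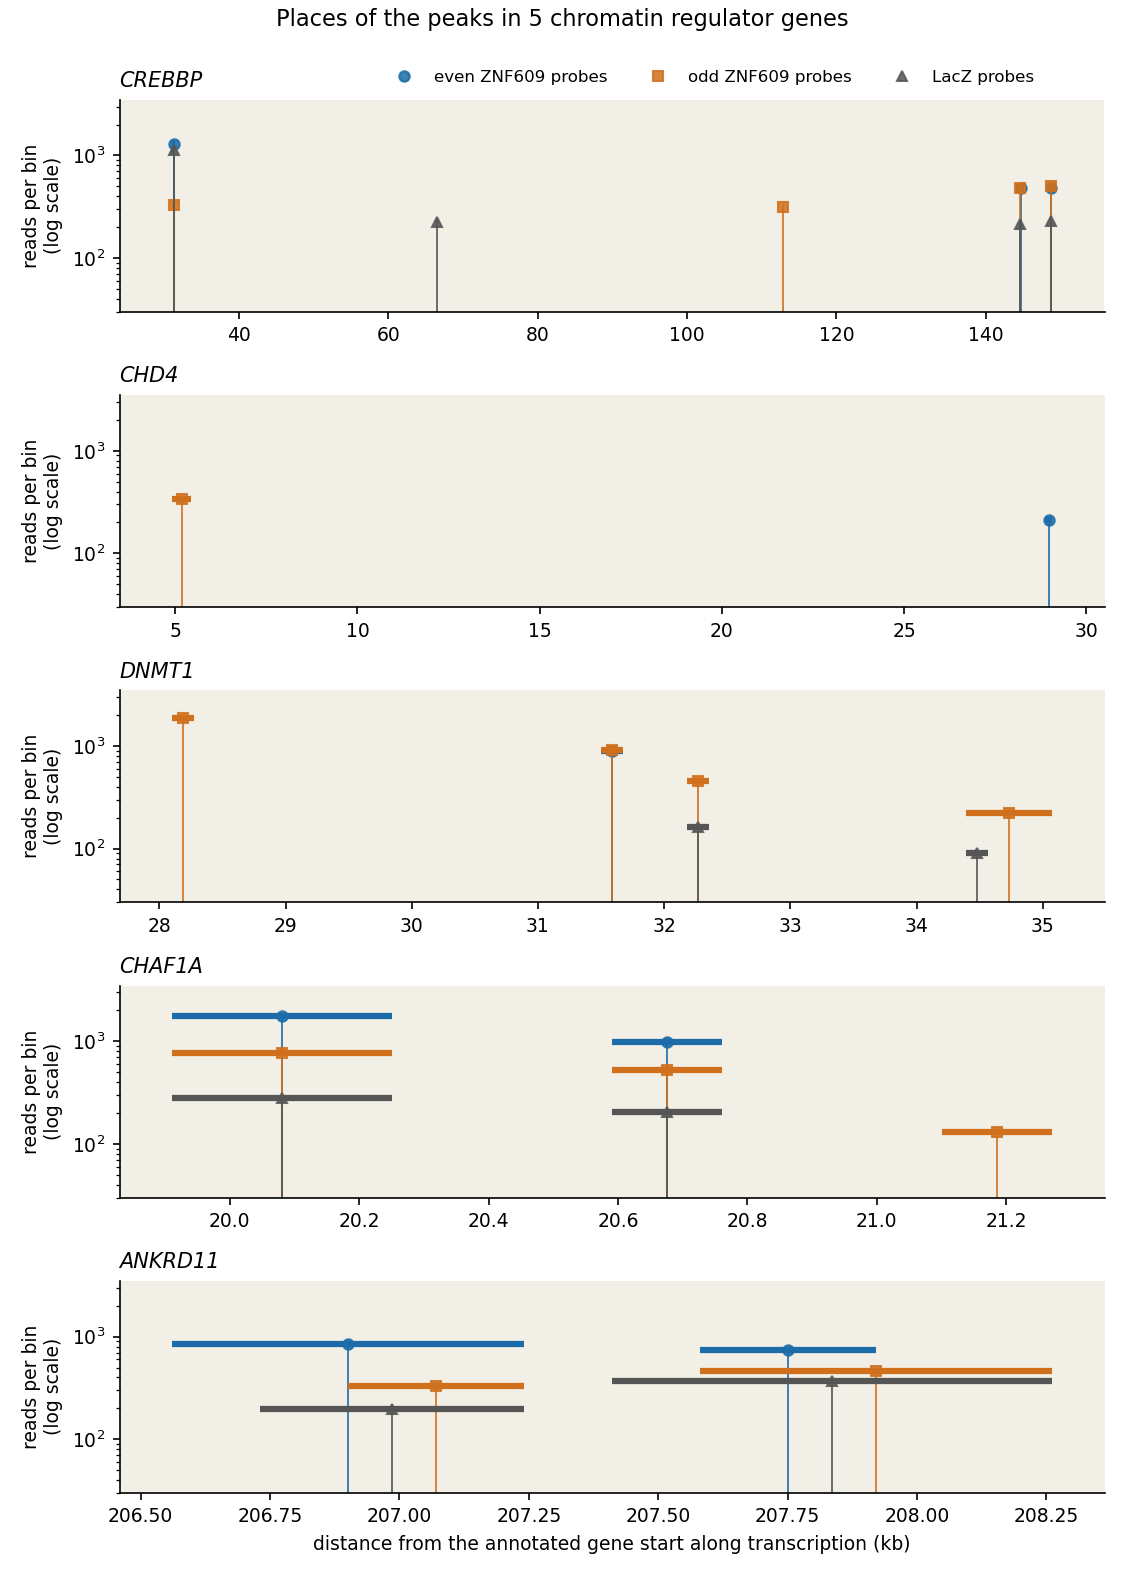
Each panel shows the part of a gene that held peaks, with distance from the annotated gene start in kilobases on the x axis and reads per bin on a log y axis. A horizontal bar gives the extent of a peak, a symbol its centre, and the colour its list. The CREBBP peaks were spread over 117810 bases, those of ANKRD11 lay within 1700 bases, and the 3 lists stack at the same places in CHAF1A.

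CREBBP (gene ID 1387, chromosome 16, 3725054 to 3880713, minus strand) encodes a histone acetyltransferase that serves many transcription factors as a coactivator. It had 3 even, 4 odd and 4 LacZ peaks. The place with the most even and LacZ reads per bin lay upstream at 3849311 to 3849650, 31063 bases from the gene start. There the even list had 1287.5 reads per bin, the odd list 330.5 and the LacZ list 1142. Ordered by reads, this place ranked 24 of 502 with even probes and 4 of 722 with LacZ probes, but only 151 of 542 with odd probes. It was thus among the strongest places of the control pull-down.

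The other CREBBP places shared by all 3 lists lay near the downstream end of the gene, at 3731841 to 3732010 and 3735921 to 3736260. At the first, the last place in the direction of transcription, even probes gave 482, odd probes 507 and LacZ probes 231 reads per bin. At the second they were 482, 477.5 and 217, with the even peak covering 1 of the 2 bins. The ratio between these downstream places was 1.00 (exact 95% counting interval 0.88 to 1.14) in the even list, 1.06 (0.951 to 1.18) in the odd list and 1.06 (0.903 to 1.25) in the LacZ list. These intervals overlap, so a difference between the lists was not detectable here.

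The ratio of the upstream place to the last place did differ between the CREBBP lists beyond counting error. It was 2.67 (2.42 to 2.95) in the even list, 0.652 (0.580 to 0.733) in the odd list and 4.94 (4.32 to 5.68) in the LacZ list. A ratio within 1 list does not depend on library depth. The odd list was the one in which the upstream place held fewer reads than the downstream places. All intervals here cover counting error only, and amplified reads are not independent molecules.

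CREBBP also had places seen with 1 probe set. An odd peak at 3767711 to 3767880 had 317 reads, and a LacZ peak at 3814121 to 3814290 had 222. No even peak lay at either. Single-bin even peaks with a column 8 score within 10% of that of the LacZ place began at 314 reads, and odd ones at 276. For the odd place, such peaks began at 245 reads in the even and 80 in the LacZ list. Lists hold called peaks alone, so a place without a peak may still have had reads below these levels.

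**Figure D2:**
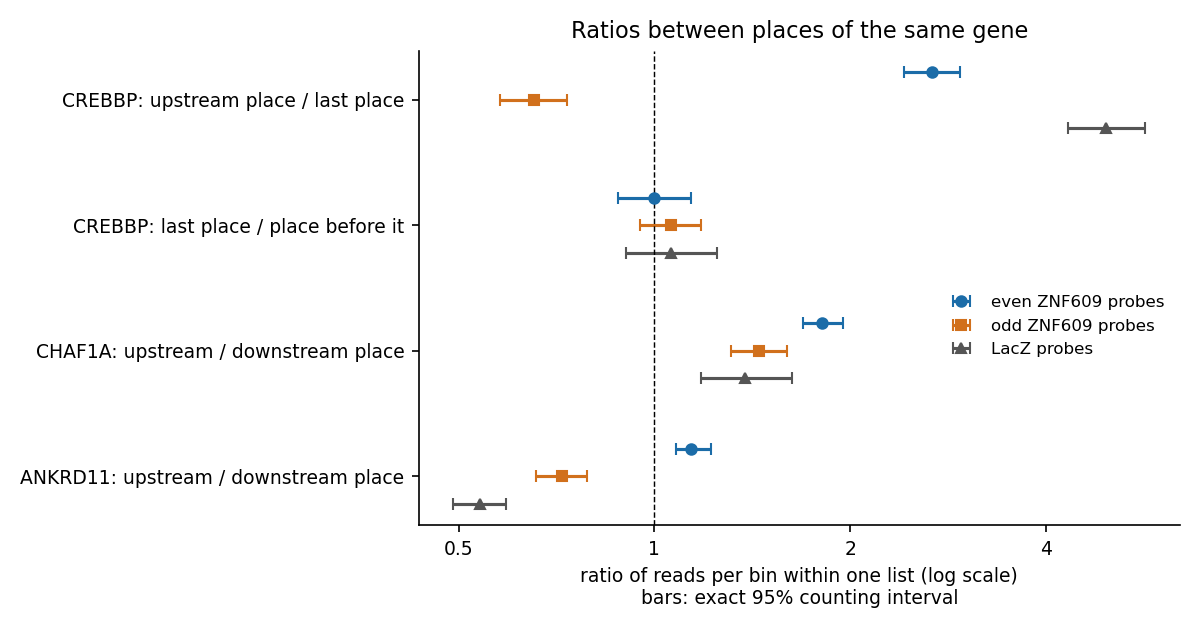
The x axis gives, on a log scale, the ratio of reads per bin between a pair of places in the same gene and list, with exact 95% counting intervals as bars. The upstream to last ratio of CREBBP runs from 0.652 (odd) to 4.94 (LacZ), while the neighbouring downstream places of CREBBP stay near 1 in each list.

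CHAF1A (gene ID 10036, chromosome 19, 4402640 to 4450830, plus strand) encodes the large subunit of chromatin assembly factor 1, which deposits histones H3 and H4 behind the replication fork. Its 7 peaks lay within 1360 bases, in the middle of a gene of 48191 bases. At 4422551 to 4422890 even probes gave 1768, odd probes 769.5 and LacZ probes 282 reads per bin. At 4423231 to 4423400 they were 976, 531 and 204. The peaks had the same borders in all 3 lists at both places, and each list had more reads at the upstream place.

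The even peak at the upstream CHAF1A place, at rank 14 of 502 by reads, was the strongest member peak of the even list. The ratio of the upstream to the downstream place was 1.81 (1.69 to 1.95) with even, 1.45 (1.31 to 1.60) with odd and 1.38 (1.18 to 1.63) with LacZ probes. The even interval lay above the others, and those of odd and LacZ overlapped. A further weak place, at 4423741 to 4423910, was listed with odd probes alone, with 131 reads at rank 468 of 542. Even peaks of similar score began at 138 reads, and LacZ ones at 46.

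ANKRD11 (gene ID 29123, chromosome 16, 89267630 to 89490561, minus strand) is a large gene of 222932 bases, yet its 6 peaks lay in a stretch of 1700 bases that began 206561 bases from its start. The upstream place, 89283321 to 89284000, had 853.75 reads per bin over 4 bins in the even list. The odd list had 331.5 over 2 bins there, and the LacZ list 197 over 3. At the downstream place, 89282301 to 89283150, the even list had 747 reads per bin over 2 bins, the odd list 460 over 4 and the LacZ list 365.4 over 5. The even reads were thus higher upstream and the odd and LacZ reads higher downstream.

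The ratio of the upstream to the downstream ANKRD11 place was 1.14 (1.08 to 1.22) with even, 0.721 (0.658 to 0.788) with odd and 0.539 (0.491 to 0.592) with LacZ probes. The intervals do not overlap, but the called widths differed between the lists, so the ratios are not over the same bins. Pseudogenes named ANKRD11P1 and ANKRD11P2 are annotated, so reads of ANKRD11 are uncertain where alignment could divide them between copies.

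DNMT1 (gene ID 1786, chromosome 19, 10133346 to 10194953, minus strand) encodes the maintenance DNA methyltransferase. It had 4 odd peaks, 2 LacZ peaks and 1 even peak within 6970 bases. In the odd list each place had fewer reads than the one upstream of it. They were 1884 per bin at 10166681 to 10166850, 920 at 10163281 to 10163450, 457 at 10162601 to 10162770 and 220.25 at 10159881 to 10160560. The first of these was at rank 3 of 542 by reads in the odd list, and no even or LacZ peak was listed there. No single-bin even or LacZ peak had a score similar to or above the 0.025 of this place. A level at which such peaks began can therefore not be given. Whether even or LacZ probes also gave reads there cannot be judged.

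The even list shared with the odd list the DNMT1 place at 10163281, where even probes gave 898 reads and odd probes 920. No LacZ peak was listed there, and the 7 single-bin LacZ peaks of similar score had at least 227 reads each. The LacZ peaks lay at the downstream places, with 163 reads at 10162601 to 10162770 and 91 reads at 10160391 to 10160560. No even peak was listed at either place. Single-bin even peaks with scores near that of 10162601 began at 482 reads.

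The downstream DNMT1 places were compared in both lists that held them. The bin at 10162601 had 2.07 times (1.85 to 2.33) the reads per bin of the place at 10159881 in the odd list and 1.79 times (1.38 to 2.34) in the LacZ list. Those intervals overlap, but the place at 10159881 was called over 4 bins in the odd and 1 bin in the LacZ list, so the ratios are not over the same bins. With a reciprocal overlap of 50% this place was no longer shared. In the lists as deposited DNMT1 thus had peaks with all 3 probe sets as a gene, but at no place common to all 3. In lists trimmed to the 502 lowest p-values each, both of its LacZ peaks were lost, so that 3 of the 5 genes had a LacZ peak.

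CHD4 (gene ID 1108, chromosome 12, 6570082 to 6607379, minus strand) encodes the helicase-like motor of the NuRD remodeling and deacetylase complex. It was the only one of the 5 genes with 0 LacZ peaks and the one with the fewest peaks, 1 even and 1 odd. The odd peak, at 6601951 to 6602460, had 340.667 reads per bin over 3 bins and lay 4919 bases from the gene start. The even peak, at 6578321 to 6578490, had 211 reads in 1 bin and lay 28889 bases from the start. The peaks were 23460 bases apart, so no place was called with both probe sets.

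The even CHD4 peak also overlapped the annotated antisense gene CHD4-AS1. The library kits are not stated to keep strand, so the pair cannot be told apart at this peak. It was the only one of the 33 peaks that lay in a further gene. At the even place, single-bin peaks of similar score began at 147 odd and 52 LacZ reads. At the odd place they began at 192 reads in the even and 64 in the LacZ list, so reads below these levels may have been present. CHD4 ranked 341 of 502 by reads with its even peak and 142 of 542 with its odd peak.

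The order of the genes by their share of the reads in peaks differed between lists. In the even list ANKRD11 led with 1.02% (exact Clopper-Pearson 95% interval 0.989 to 1.05), followed by CHAF1A with 0.935% (0.908 to 0.963) and CREBBP with 0.734% (0.710 to 0.758). DNMT1 held 0.186% and CHD4 0.0437%. In the odd list DNMT1 led with 1.48% (1.44 to 1.53). ANKRD11 with 0.896% (0.861 to 0.931) and CREBBP with 0.873% (0.839 to 0.908) did not differ beyond counting error. CHAF1A held 0.788% and CHD4 0.366%.

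In the LacZ list the order was CREBBP with 1.45% (1.4 to 1.5), ANKRD11 with 1.1% (1.06 to 1.15), CHAF1A with 0.350% (0.326 to 0.376) and DNMT1 with 0.116%. By summed reads CREBBP was at rank 3 of the 511 genes with a LacZ peak, against 26 of 338 for even and 23 of 359 for odd. DNMT1 ranked 9 with odd probes, 121 with even probes and 216 with LacZ probes. In all, the 5 genes held 2.92% of even, 4.40% of odd and 3.01% of LacZ reads in peaks. These are shares of called peaks and not of the libraries, whose depth is unknown.

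Ratios between lists were then set against those of every region that the same lists shared. The lists are not scaled to each other, so the median over all shared regions is the reference. Peaks were called separately in each list, and the ratios of both ANKRD11 places, of CREBBP at 3735921 (with even) and of DNMT1 at 10159881 set means over unlike numbers of bins against each other. Over 74 regions the even to LacZ ratio had a median of 2.87, with a range of 0.550 to 34.4. The CHAF1A places lay above it, at 6.27 (5.73 to 6.86, rank 14) and 4.78 (4.11 to 5.59, rank 19). The upstream ANKRD11 place had 4.33 (rank 23) and the downstream one 2.04 (rank 51). The CREBBP places all lay below the median, at 2.22, 2.09 and, upstream, 1.13 (1.07 to 1.19, rank 69). Of the 7 member places, 3 lay above the median and 4 below.

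Over the 88 regions shared by odd and LacZ the median ratio was 2.40. Of 9 member places 4 lay above it. The DNMT1 places had 2.80 and, where 4 odd bins were set against 1 LacZ bin, 2.42. The CHAF1A places had 2.73 and 2.60 and the downstream CREBBP places 2.20 and 2.19. The ANKRD11 places were lower, at 1.68 and 1.26. The upstream CREBBP place had 0.289 (0.265 to 0.316) and ranked 87 of 88, so that nearly every other shared region had more odd reads for its LacZ reads.

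Over the 93 regions shared by even and odd the median ratio was 1.31, and 5 of 8 member places lay above it. The upstream CREBBP place had 3.9 (rank 11), the ANKRD11 places 2.58 and 1.62 and the CHAF1A places 2.30 and 1.84. The downstream CREBBP places, at 1.01 and 0.951, and the DNMT1 place, at 0.976 (0.889 to 1.07), had almost equal even and odd reads and lay below the median. The 3 sets of ratios are built from the same 3 libraries and are not independent.

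**Figure D3:**
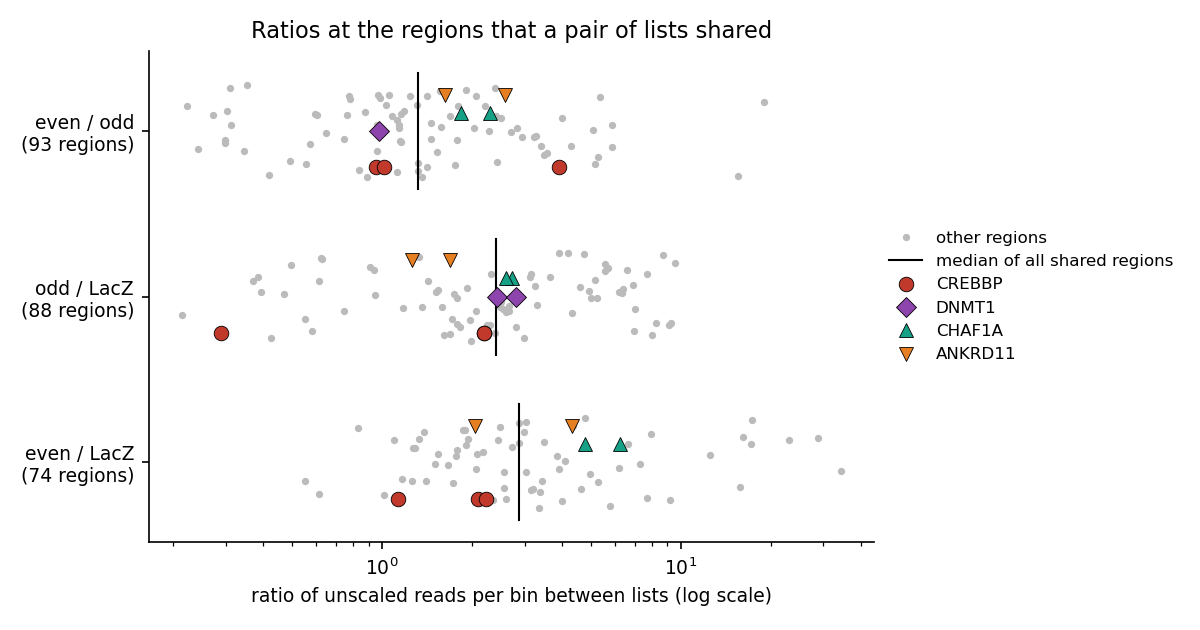
Each point is a region shared by a pair of lists, with the ratio of unscaled reads per bin on a log x axis, members in colour, all other regions in grey and a black line at the median. The CHAF1A places lie right of the even to LacZ median of 2.87, and the upstream CREBBP place stands at the left of the odd to LacZ row, at 0.289.

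The unnamed score that the deposited lists give each bin in column 8 was high for these genes. Neither the labels nor the lists say what it measures. It may be a covariate that was given to the peak caller, and a rank by it would then describe an input of the calling and not a measurement of the pull-down. Which of these it is was not tested. It had the same value for identical peaks in different lists though their reads differed. At the CHAF1A places shared by all 3, for example, it was 0.0153 upstream and 0.0113 downstream. Of the 33 member peaks, 27 were in the top 25% of their list by this score, and 32 exceeded the list median (0.00282 even, 0.00239 odd, 0.00406 LacZ). The highest were the DNMT1 places at 10166681 with 0.025, rank 2 of the odd list, and at 10163281 with 0.0169, rank 6 of both ZNF609 lists. The lowest was the weak odd place of CHAF1A, with 0.00203. CHD4 had 0.00338 at its even and 0.00519 at its odd peak.

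Peaks with many reads had high scores in the lists as a whole. Of the 125 even peaks in the top 25% by reads, 60% were also in the top 25% by score, as were 63% of 135 odd and 58.6% of 181 LacZ peaks. For the members these counts were 5 of 6, 8 of 8 and 7 of 8. At the upstream CREBBP place, and in the LacZ peak of CREBBP at 3814121, the score was a fixed value of 0.01 that the lists repeat in many bins. Such bins lay under 11.4% of even, 4.06% of odd and 23.4% of LacZ peaks. Under 4 of the 33 member peaks there was such a bin, each in CREBBP. These 4 were ranked by the fixed value and count among the 27 in the top 25% by score and the 32 above the list median. The even one is in the 5 of 6 and the LacZ ones are in the 7 of 8. The shares over all peaks also include such values.

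**Figure D4:**
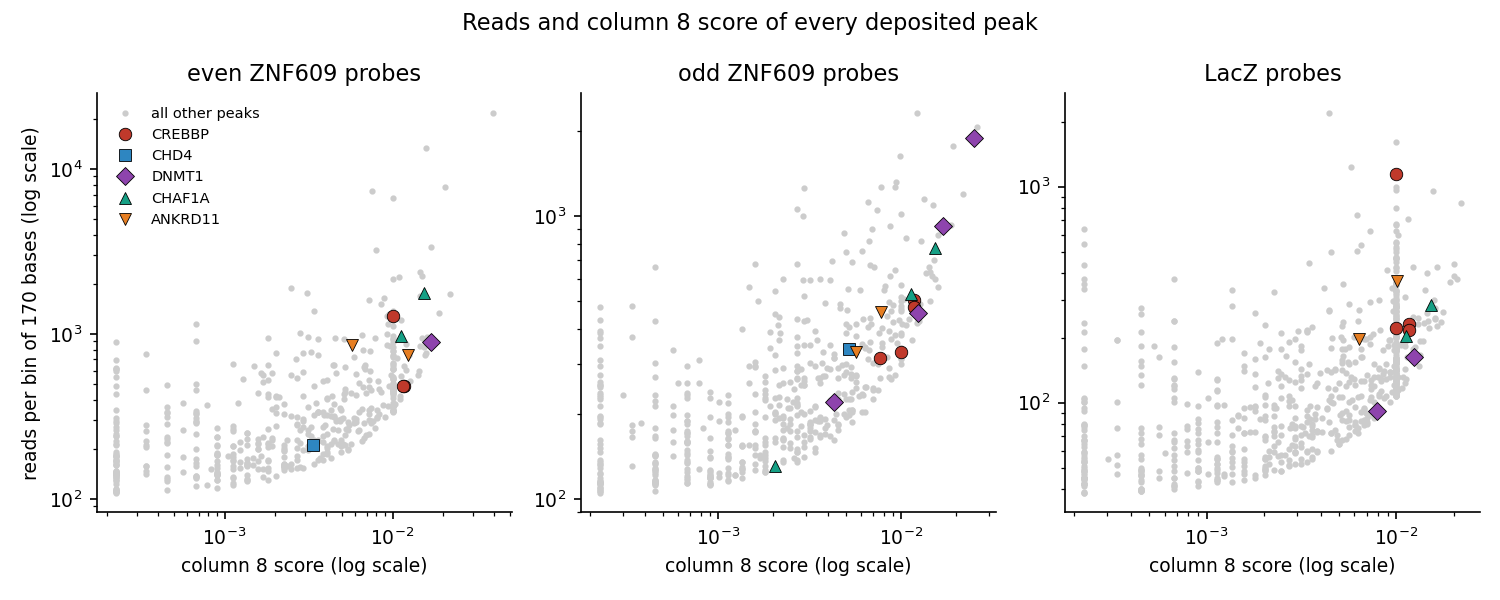
Column 8 score is on the x axis and reads per bin on the y axis, both on log scales, with 1 panel per list and every deposited peak drawn. The lower edge of the points rises with the score, and member peaks such as those of DNMT1 (898 even and 920 odd reads at a score of 0.0169) sit at the right, several of them near that edge.

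By the p-value that the authors deposited for each peak, the members stood lower than by reads. Of the 33 peaks, 32 had a better rank by reads than by p-value, the even CHD4 peak being the exception. Over all peaks this held for 39.8% of even, 39.3% of odd and 46.5% of LacZ peaks. Of the member peaks 22 were in the top 25% by reads against 5 by p-value. The odd DNMT1 peak of 1884 reads stood at rank 3 of 542 by reads and at rank 380 by the deposited p-value. The even DNMT1 peak was at rank 50 by reads and 415 of 502 by p-value. The upstream CREBBP place went from rank 4 by reads to 6 by p-value in the LacZ list, where the deposited p-value was 1.42e-13. It went from 24 to 44 in the even list and from 151 to 452 in the odd list.

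Among all peaks in the top 25% by reads, 62.4% of even, 54.1% of odd and 60.2% of LacZ peaks were also in the top 25% by p-value. For the members this held in 4 of 6 even, 0 of 8 odd and 1 of 8 LacZ peaks. A deposited p-value of at most 0.001 was reached by 4 of 9 even member peaks (34.7% of all even peaks), 0 of 14 odd ones (25.6%) and 4 of 10 LacZ ones (37%). The even peaks were both of CHAF1A, the upstream one of CREBBP and the upstream one of ANKRD11. With that limit 0 of the 16 places were shared by even and odd, whereas the upstream places of CREBBP and ANKRD11 were still shared by even and LacZ.

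**Figure D5:**
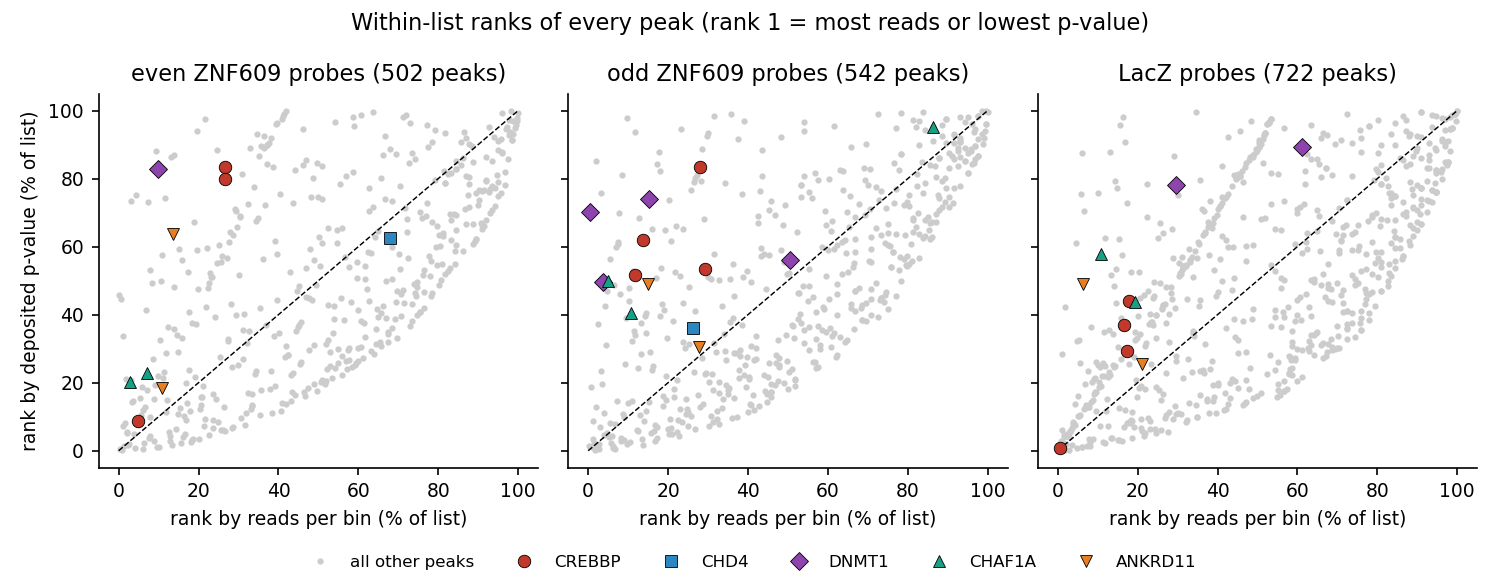
Within-list rank by reads per bin (x axis) and by the deposited p-value (y axis), both as a percentage of the list, with rank 1 at the lower left and a dashed line of equal rank. Of the 33 member peaks, 32 lie above the line, and in the odd panel none of the 14 lies in the lowest 25% of the y axis.

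Genes with the same numbers of peaks in each list as a member were sought as the most like patterns, ordered by the mean difference between within-list percentile ranks of their best peaks. RBM25, which encodes a splicing factor, was the only gene with the 3 even, 4 odd and 4 LacZ peaks of CREBBP, at a mean difference of 7.95 percentile points over the 3 lists. It also had 3 regions held by all lists. PLEC was the only match for DNMT1 (45.3 points) and FAM50A the only one for ANKRD11 (27.2 points), neither of them close in rank. CHAF1A had 0 matches. CHD4 shared its pattern with 13 genes, of which UPF2 (8.87 points), AHNAK (15.5) and the remodeling factor gene RSF1 (20.2), compared over 2 lists, were nearest.

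Lists of 199 chromatin genes grouped by function put the 5 genes beside their relatives. In these lists 42 genes (21.1%) had a peak, against 4.22% of the 20056 annotated protein-coding genes. Since the 5 were chosen for their peaks, the counts without them are given: 37 of 194 (19.1%) in any list, 18 in the even list (9.28%, background 1.54%), 19 in the odd list (9.79%, background 1.64%) and 16 in the LacZ list (8.25%, background 2.22%). With the 5 genes they were 23, 24 and 20. Gene length and expression were not matched in these shares. Without the 5 genes, 3 of the 194 had peaks in all 3 lists (0.224% of protein-coding genes) and 3 had even and odd peaks without LacZ (0.209%). A place held by all 3 lists was found in 0 of the 194 (0.14% of protein-coding genes), and in CREBBP, CHAF1A and ANKRD11 alone among the 199.

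Of 21 genes in the acetyltransferase list 5 had a peak, and without CREBBP 4 of 20 (20%, background 4.22% of protein-coding genes). BRPF1, a scaffold of acetyltransferase complexes, had 1 even and 2 odd peaks (best 274 and 372.5 reads per bin). KAT6A had 2 odd peaks, the best with 745 reads per bin at rank 29, and no even or LacZ peak. EP300, the close relative of CREBBP, had 0 peaks. Of 26 deacetylase and corepressor genes 3 had a peak, and without ANKRD11 2 of 25 (8%). The corepressor gene NCOR1 had even peaks alone, with up to 384 reads per bin.

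In the NuRD and CHD list 5 of 20 genes had a peak, and without CHD4 4 of 19 (21.1%, background 4.22%). Of these 4, CHD2, CHD6 and CHD7 had a LacZ peak. CHD6 had an even peak of 596 and a LacZ peak of 397 reads per bin at the same place. CHD7 had 3 even peaks and 1 LacZ peak at different places, with up to 161 and 63.5 reads per bin. In the DNA methylation list 2 of 17 genes had a peak, and without DNMT1 1 of 16 (6.25%), near the background. Besides DNMT1 this was UHRF1, which guides DNMT1 to hemimethylated DNA and had 2 LacZ peaks of up to 88 reads per bin. The de novo methyltransferase genes DNMT3A and DNMT3B had 0 peaks.

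In the histone chaperone list 8 of 23 genes had a peak, and without CHAF1A 7 of 22 (31.8%, background 4.22%). SUPT6H, an elongation factor and histone chaperone gene, had peaks in all 3 lists with up to 158 even, 125 odd and 50 LacZ reads per bin, and 1 place shared by even and LacZ. ANP32E had even peaks of up to 556.5 and CBX1, a heterochromatin protein gene, LacZ peaks of up to 341. CHAF1B, which encodes the partner subunit of the CHAF1A product, had 0 peaks.

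Among SWI/SNF, ISWI and INO80 remodelers 10 of 31 genes had a peak (32.3%, background 4.22%). The ATPase gene SMARCA4 had 5 LacZ peaks of up to 263 reads per bin and 1 odd peak of 244, at different places. SMARCC2 shared a place between odd and LacZ (282.5 and 162), and SMARCE1 had an odd peak of 228.5 and a LacZ peak of 93 at different places. BRD9 had 2 places shared by even and odd with no LacZ peak, with up to 154 even and 268.5 odd reads per bin. RSF1 had 146 even and 236 odd reads at different places. In 1 list only, BAZ2A reached 650 even reads, ARID1B 350 and RUVBL1 332 odd reads, and ARID1A 80 LacZ reads per bin.

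Among 61 histone methyltransferase, demethylase and related reader genes 9 had a peak (14.8%, background 4.22%). The methyltransferase gene EHMT2 had odd peaks of up to 356 reads per bin and a LacZ peak of 94, and the bromodomain gene BRD3 odd peaks of up to 411.5 and a LacZ peak of 48. Compared per bin, the even peaks of CHAF1A, CREBBP, DNMT1 and ANKRD11, with 1768, 1287.5, 898 and 853.75 in the best, exceeded the best even peak of each of the other genes in these lists, of which BAZ2A had the most. CHD4, with 211, did not.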

How the data were processed

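The genes and lists were chosen with earlier results of these data known. The deposited peak lists have no header, so units were inferred. Their signal, as deposited, is reads per bin of 170 bases, averaged over joined bins (whole reads in 100% of peaks, tolerance 0.02). Every deposited p-value was below 0.01, and correction for multiple tests is not stated. Column 8 is an unnamed score deposited by the authors, in steps of 1/4434 apart from the fixed value of 0.01. The submitters' processing notes name STAR 2.5.2b, Trimmomatic, SAMtools, Picard, bedtools and bcl2fastq 2.0.2 and the build GRCh38, without roles. The lists' names give Piranha as the caller. Peaks were called per library, and their sequences were not used here.

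Peaks were joined to RefSeq gene spans (GRCh38.p14) with Python 3.11.15 and pandas 2.3.3, and coordinates count from 1. Peaks overlapping by at least 1 base were merged into regions. Exon positions were not used here. Intervals are exact (95%, SciPy 1.17.1), from reads for ratios, and the scripts were tested on simulated data. The 5 genes were all named. Other chromatin genes were named when they had peaks in 2 or 3 lists, or were among the 3 strongest of 1 list, and some of them are not reported here. A few relatives with 0 peaks (EP300, DNMT3A, DNMT3B, CHAF1B) were named after their values were seen. Alternatives were gene assignment, a stricter p-value, equal list lengths, peaks over the fixed score and the overlap rule.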

Additional observations from a re-analysis of the deposited data

How the results depend on the processing

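With the deposited p-value limited to 0.001, every count changed by more than 1.5 times, since the lists shrank to 174 even, 139 odd and 267 LacZ peaks. Peaks in the 5 genes fell to 4 even, 0 odd and 4 LacZ, and genes with a peak to 3, 0 and 2. Overlaps of even with LacZ peaks and the reverse fell to 2, and the 4 kinds of overlap with or of odd peaks to 0. The 16 places became 6, with 2 for even and LacZ, 2 for even alone, 2 for LacZ alone and 0 in the other classes (all 3 lists, even and odd, odd and LacZ, odd alone). Chromatin list genes with a peak fell to 7 even, 7 odd and 6 LacZ. With lists trimmed to 502 peaks, places held by odd and LacZ fell from 2 to 0, and genes with a LacZ peak from 4 to 3, as DNMT1 lost both. With a reciprocal overlap of 50% they fell to 1 and LacZ places rose from 1 to 2. Without peaks over the fixed score, LacZ places fell to 0. The other counts under these settings, and all counts under the assignment by most overlapping bases or a distance of 200 bases, stayed within 1.5 times. No paired analysis was possible because each probe set has 1 library and no value comes from a test. The lists do not give library depth, so a place without a peak shows only that fewer reads than the caller needed were found.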
